A study of Mus musculus with 9 samples.

Results

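DNA replication and S phase genes were followed through 3 preparations of mouse heart cells. The 39 genes were listed by name for their roles in origin licensing, the replication fork, nucleotide supply, E2F control and chromatin assembly. The list was made with earlier results of these data known, so its shares against all genes describe the members and are not an independent test. All 39 were found among the 19933 genes measured. Each gene was represented by the array's probe set that is annotated to it alone, and where there were several, by the one with the highest mean over the 9 arrays. One group held embryonic cardiomyocytes carrying Nkx-YFP, a fluorescent reporter, a further group held cardiac fibroblasts of embryos and the last cardiac fibroblasts of adults, with 3 biological replicates per group on Affymetrix mouse Gene 1.0 ST arrays. No treatment is named for any group. Strain, embryonic stage, adult age, sex, the number of animals per replicate and any time in culture are not given in the sources available here, nor is how the fibroblasts were separated from other cells.

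A cell copies its genome once per division. In G1, the origin recognition complex, with Cdc6 and Cdt1, loads the Mcm2 to Mcm7 helicase ring onto DNA, a step called licensing. At the start of S phase Cdc45 and the GINS complex switch the helicase on, primase and the DNA polymerases follow, and ribonucleotide reductase with thymidylate synthase supplies the building blocks. Transcription of much of this machinery is driven by E2F factors at the G1/S boundary. In the mouse heart, cardiomyocytes divide before birth and largely leave the cell cycle after it, and fibroblasts of the healthy adult heart divide rarely.

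Most of the replication genes were lower in adult fibroblasts than in either embryonic preparation. In 12 of the 39, embryonic fibroblasts were also called below cardiomyocytes, a pattern whose share among all genes was not counted. Between embryonic and adult fibroblasts 30 of the 39 genes were higher in the embryonic cells (76.9%, against 11.2% of all genes), 16 of them by at least 2-fold (3.66% of all genes). None was lower in the embryonic cells, where 8.34% of all genes were (limma called 0 members lower, and 0 had an unadjusted p under 0.05 in that direction). The primase gene Prim1 (7.26-fold), E2f8, a repressor of the E2F family (6.54-fold), and the helicase subunit gene Mcm4 (3.73-fold) showed the largest differences. All adult values of Prim1 and E2f8 were dim, below 6.91, the 30th percentile of mean levels. Between the embryonic preparations the differences were smaller: 14 genes were lower in fibroblasts than in cardiomyocytes (35.9%, against 11.1% of all genes) and 4 were higher (10.3%, the same share as among all genes, 10.3%). Gmnn, which encodes the licensing inhibitor geminin (2.37-fold), and Rrm2, a subunit of ribonucleotide reductase (2.12-fold), were the 2 members lower there by at least 2-fold (2.47% of all genes). The count of 14 became 8 without cardiomyocyte replicate 1, 6 without cardiomyocyte replicate 2, 8 without embryonic fibroblast replicate 1 and 6 without embryonic fibroblast replicate 2, and 22 with array weights. Lower calls among all genes moved too, from 2212 to 1555, 1505, 1529 and 1452 in the same order, and to 3362 with array weights. The count of 4 became 2 without embryonic fibroblast replicate 1 or adult replicate 1, 1 without cardiomyocyte replicate 2, and 0 without cardiomyocyte replicate 1 or 3 or embryonic fibroblast replicate 2 or 3. Higher calls among all genes went from 2054 to 1448 to 1897 without single embryonic arrays and to 2043 without adult replicate 1. Adult fibroblasts stood below cardiomyocytes in 33 genes (84.6%, against 18.2% of all genes), 22 of them by at least 2-fold (7.5% of all genes). No member was called above them in limma, where 17.4% of all genes were (0 members had an unadjusted p under 0.05 in that direction).

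Calls rest on limma, fitted to all 9 arrays, with a Benjamini-Hochberg adjusted p under 0.05 over the 19933 genes. Levels are log2 values of the authors' RMA summary, given as the mean ± SD of 3 arrays, and differences are on the log2 scale ± the standard error from limma. The comparisons share arrays, so their counts are not independent of each other. The median log2 difference of the 39 genes was 0.84 for embryonic minus adult fibroblasts, where that of all genes was -0.04. It was -0.28 for embryonic fibroblasts minus cardiomyocytes, against -0.0003 for all genes, and -1.05 for adult fibroblasts minus cardiomyocytes, against 0.06. The means ran from cardiomyocytes through embryonic to adult fibroblasts in falling order in 32 of the 39 genes, an order found in 21.6% of all genes. All 3 embryonic fibroblast arrays were above all 3 adult arrays in 33 members (16.1% of all genes). They were below all cardiomyocyte arrays in 22 (19.8%) and above them in 4 (19.3%). Adult arrays were below all cardiomyocyte arrays in 36 (21.7%) and above them in 1, Orc6 (24.2%). In these whole preparations, fewer cycling cells and less replication RNA per cycling cell cannot be told apart.

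**Figure D1:**
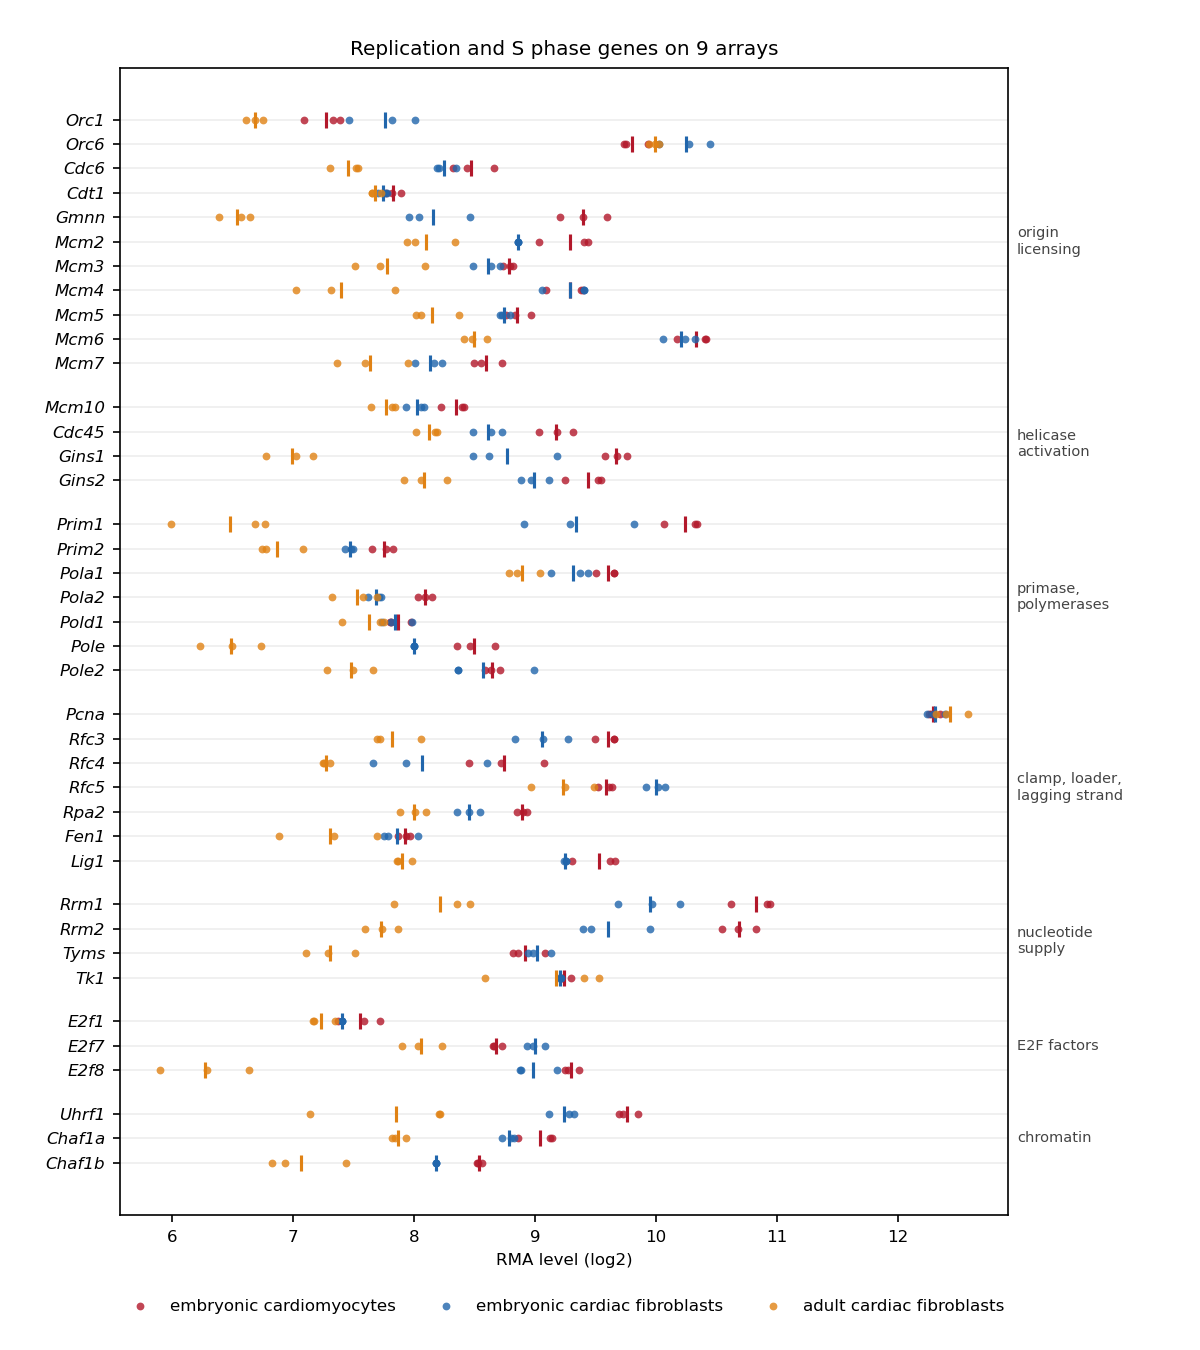
RMA levels (log2, horizontal axis) of the 39 replication and S phase genes on 9 arrays, grouped by role; dots are single arrays, upright ticks the group means. For most genes the adult fibroblast arrays lie to the left of both embryonic groups, while in Pcna, Tk1, Cdt1, Orc6, Pola2 and Pold1 the embryonic and adult fibroblast arrays overlap.

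The preparations were checked against cell type markers. All 10 cardiomyocyte markers were lower in adult fibroblasts than in cardiomyocytes, and 7 of 10 were lower in embryonic fibroblasts. Their median level was still 10.25 to 10.91 on the embryonic fibroblast arrays, against 12.13 to 12.30 in cardiomyocytes and 7.35 to 7.49 in adult fibroblasts, so the embryonic fibroblast arrays measured cardiomyocyte genes well above the adult ones. The summed linear level of these markers was 35584 to 47184 in embryonic fibroblasts, 67207 to 70971 in cardiomyocytes and 2798 to 4674 in adult fibroblasts. All 9 fibroblast markers were higher in both fibroblast groups than in cardiomyocytes, and in embryonic against adult fibroblasts 5 were lower and 1 higher. Of 6 endothelial markers 6 were higher in embryonic fibroblasts than in cardiomyocytes and 2 higher than in adult fibroblasts, and of 6 macrophage markers 3 were higher and 3 lower in the same comparisons. Of 4 measured red cell markers, 3 were below cardiomyocytes in embryonic fibroblasts and 3 were higher than in adult fibroblasts. Mitosis genes summed to 9737 to 11013 in cardiomyocytes, 4924 to 7436 in embryonic and 1047 to 1282 in adult fibroblasts. Between embryonic and adult fibroblasts 4 of 6 epicardial and mesothelial markers were higher in the embryonic cells, and of 6 smooth muscle and pericyte markers 3 were higher and 2 lower. Among all genes, 10.3% were called higher and 11.1% lower in embryonic fibroblasts than in cardiomyocytes. The shares were 11.2% and 8.34% for embryonic against adult fibroblasts, and 17.4% and 18.2% for adult fibroblasts against cardiomyocytes. RMA values have no true 0, so no marker can be called absent. The part of these cells in the replication values was not tested.

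Embryonic fibroblast replicate 3 held the highest value of its group in 22 of the 39 replication genes, against 30.2% of all genes. It was also highest in 9 of the 10 cardiomyocyte markers and 6 of 7 measured genes of mitosis. Without it, 27 members were called higher than in adult fibroblasts and 11 lower than in cardiomyocytes, and the number called higher than in cardiomyocytes went from 4 to 0. Among all genes these calls went from 2232 to 1873, from 2212 to 2155 and from 2054 to 1897. Adult fibroblast replicate 3 correlated less with its group over all probe sets (mean r = 0.970, against 0.981 for the others). Without this array 29 members were higher in embryonic than adult fibroblasts, 1, Tk1, was lower, and 32 were lower in adult fibroblasts than in cardiomyocytes.

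Mcm2, Pole, E2f1 and Chaf1b (4 of the 39 members) had the same value to 3 decimals on all 3 embryonic fibroblast arrays. This held for 1.73% of all genes (344), and in every one of these 344 the shared value was the median of the 9 arrays. The SD of 0.00 of such a gene is therefore not a measure of replicate spread. Leaving the 4 genes aside, 12 of 35 members stood below cardiomyocytes in embryonic fibroblasts, 27 of 35 higher than in adult fibroblasts, and 29 of 35 lower in adult fibroblasts than in cardiomyocytes. Among all genes the shares with these calls were 11.1%, 11.2% and 18.2%.

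**Figure D2:**
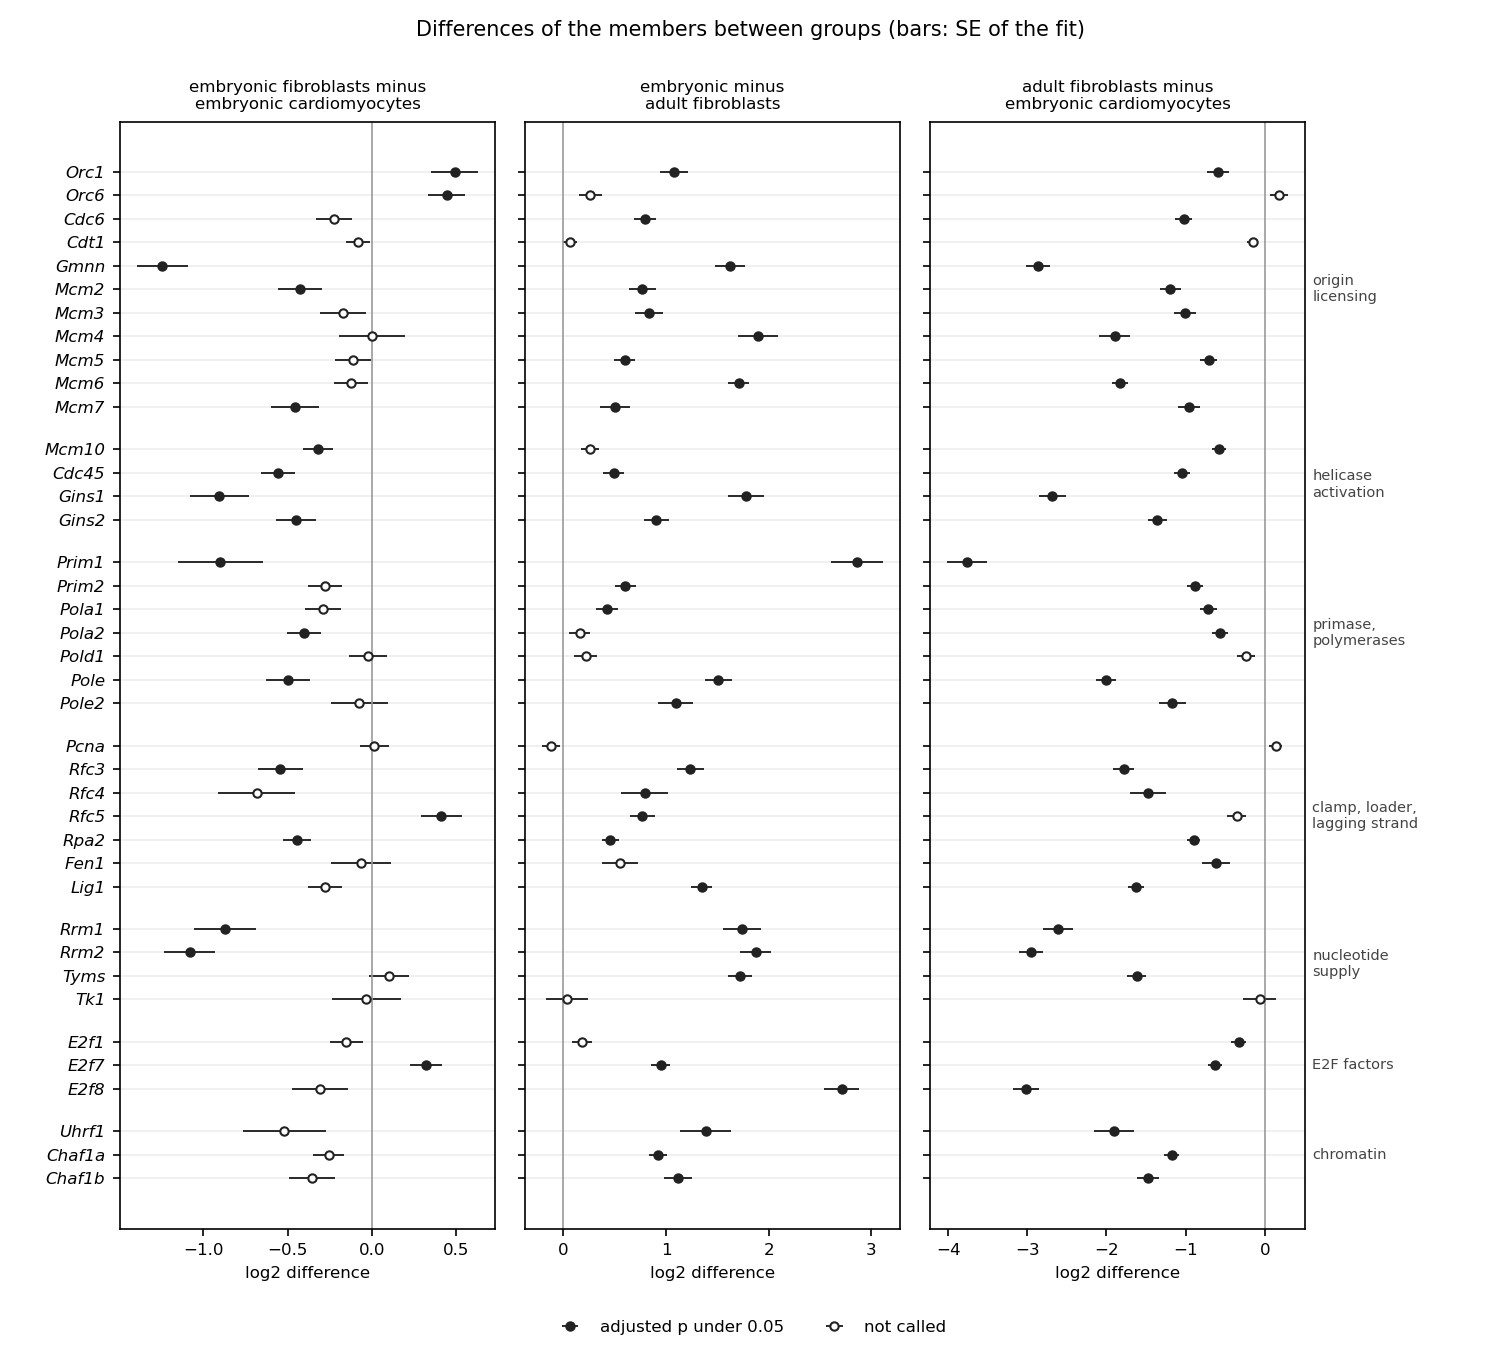
Log2 differences of the 39 genes in the 3 comparisons, with the limma standard error; filled points have an adjusted p under 0.05 and open points do not, and each panel has its own scale. Differences of embryonic minus adult fibroblasts (middle) are filled and positive for 30 genes, and those between the embryonic groups (left) for 4 genes positive and 14 negative.

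The promoters of the members were searched because E2F factors are known to bind near the start of many S phase genes. RefSeq windows on GRCm38.p6, from 250 bases before to 50 bases after a transcription start, were held for 33 of the 39 genes in 38 windows. The motifs were TTTCCCGC, TTTGGCGC and TTTCGCGC, on both strands, and matches may overlap. At least 1 match lay in 14 of the 38 windows (36.8%), which belong to 14 of the 33 genes, against 2.58% of the 19171 windows of genes measured on the array. Matches were found in 12 of the 24 genes called higher in embryonic than adult fibroblasts and in 2 of the 9 not called, namely Cdt1 and Pold1. These shares were not compared by a test. In 21 of the 38 windows the start site was the outer end of the gene in RefSeq. The others lie elsewhere, so a gene without a match may hold one outside its window. Only exact matches to these 3 motifs were counted, so other forms of the site inside a window were missed. The CCAAT box, bound by NF-Y, was present on either strand in 57.9% of the members' windows and 37.4% of all windows of measured genes. These are matches of letters, not measured binding.

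Mcm6 and Mcm5, both higher in embryonic than adult fibroblasts, are shown because a pair of their motifs on opposite strands overlaps. Their 250 bases before the start follow, 5′ to 3′ on the gene's strand, with the E2F motifs in capitals. 
Mcm6 (chr1:128359706-128359955, minus strand): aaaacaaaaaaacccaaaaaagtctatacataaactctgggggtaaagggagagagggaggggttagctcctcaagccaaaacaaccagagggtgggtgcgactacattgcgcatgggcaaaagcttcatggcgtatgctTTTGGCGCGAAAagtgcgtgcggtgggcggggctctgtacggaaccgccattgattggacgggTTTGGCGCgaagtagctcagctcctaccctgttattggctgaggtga
Mcm5 (chr8:75109259-75109508, plus strand): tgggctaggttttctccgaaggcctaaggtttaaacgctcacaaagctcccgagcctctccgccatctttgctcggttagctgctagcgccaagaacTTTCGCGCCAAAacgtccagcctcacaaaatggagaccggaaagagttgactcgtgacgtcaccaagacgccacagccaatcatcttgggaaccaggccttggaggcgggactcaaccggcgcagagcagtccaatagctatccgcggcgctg
Rrm2, with a larger difference than either, has none of the 3 motifs in its window, and its CCAAT match is in capitals.
Rrm2 (chr12:24708004-24708253, plus strand): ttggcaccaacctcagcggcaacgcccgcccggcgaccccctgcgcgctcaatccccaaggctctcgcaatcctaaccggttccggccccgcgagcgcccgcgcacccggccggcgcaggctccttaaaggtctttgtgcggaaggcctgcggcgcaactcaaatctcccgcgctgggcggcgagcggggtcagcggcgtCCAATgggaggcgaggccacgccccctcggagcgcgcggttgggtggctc

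One match from each of 6 other members is shown with its flanks, 30 bases each (Mcm7 holds a further match after its start), to let the core be compared between roles. Orc1 and Cdc6 license origins, Pola1 is a polymerase subunit, Uhrf1 maintains DNA methylation and E2f7 is itself an E2F repressor. Capitals mark the match on the gene's strand or, read in reverse complement, on the other.
Orc1 (chr4:108579416-108579445, plus strand): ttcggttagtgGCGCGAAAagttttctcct
Cdc6 (chr11:98908002-98908031, plus strand): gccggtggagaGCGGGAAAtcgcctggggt
Mcm7 (chr5:138172030-138172059, minus strand): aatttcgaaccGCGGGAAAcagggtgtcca
Pola1 (chrX:93632275-93632304, minus strand): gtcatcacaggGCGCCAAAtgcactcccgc
Uhrf1 (chr17:56304117-56304146, plus strand): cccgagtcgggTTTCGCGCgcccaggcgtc
E2f7 (chr10:110745230-110745259, plus strand): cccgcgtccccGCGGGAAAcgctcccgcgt

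**Figure D3:**
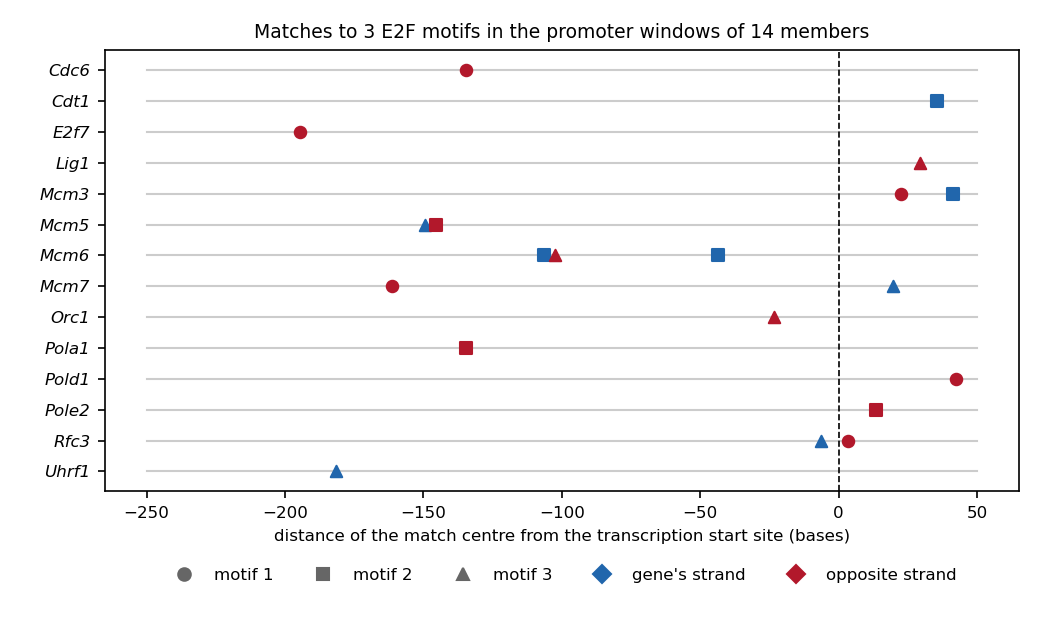
Positions of matches to the 3 E2F motifs in the windows of 14 members, as distance from the annotated transcription start (bases, dashed line at 0); motifs 1, 2 and 3 are TTTCCCGC, TTTGGCGC and TTTCGCGC, and colour gives the strand. Matches lie on both sides of the start, and those of Mcm5 and Mcm6 include pairs that overlap.

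Licensing genes were called higher in embryonic than adult fibroblasts in 9 of 11 cases (81.8%, against 11.2% of all genes). The helicase subunit gene Mcm4 measured 9.38, 9.40 and 9.09 on the cardiomyocyte arrays, 9.06, 9.40 and 9.41 on the embryonic fibroblast arrays and 7.03, 7.31 and 7.84 on the adult arrays. Both embryonic groups overlap, and every adult array lies more than 1 log2 unit below them. The difference was 1.90 ± 0.20 between the fibroblasts (3.73-fold, adjusted p = 0.000154), and the 95% interval against cardiomyocytes ran from -0.44 to 0.44. Mcm6 followed the same course, at 10.33 ± 0.14 and 10.21 ± 0.14 in the embryonic groups and 8.50 ± 0.09 in adult fibroblasts (SD, n = 3). Embryonic exceeded adult fibroblasts by 1.71 ± 0.10 in Mcm6, the smallest SE relative to the difference in the Mcm ring.

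The remaining ring subunits differed less. Mcm2 stood at 9.40, 9.43 and 9.03 in cardiomyocytes, at 8.86 on all 3 embryonic fibroblast arrays and at 7.94, 8.01 and 8.34 in adult fibroblasts, so that the 3 groups did not overlap. The shared value is the median of the 9 arrays, so this separation and the standard errors of Mcm2 do not reflect the spread of embryonic fibroblast replicates. Mcm2 exceeded its adult level 1.70-fold in embryonic fibroblasts (adjusted p = 0.00303) and was lower than in cardiomyocytes by a margin near the threshold (-0.43, adjusted p = 0.0477). Mcm5 had 8.83, 8.97 and 8.76 in cardiomyocytes, 8.71, 8.79 and 8.72 in embryonic fibroblasts and 8.37, 8.05 and 8.02 in adult fibroblasts. Only the adult arrays of Mcm5 stood apart, by 0.60 ± 0.11 from the embryonic fibroblasts (adjusted p = 0.00350). Mcm3 (0.84) and Mcm7 (0.50) were also higher in embryonic than adult fibroblasts. The call of Mcm7 was lost in 13 of 17 alternative analyses, among them the fit with the replicate number as a block and the fit without adult replicate 3.

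The loading factors were uneven. Cdc6, which recruits the helicase to origins, measured 8.66, 8.44 and 8.32 in cardiomyocytes, 8.19, 8.34 and 8.20 in embryonic fibroblasts and 7.53, 7.30 and 7.52 in adult fibroblasts. Its embryonic groups overlapped and its adult arrays were lower by 0.80 ± 0.11 (1.74-fold, adjusted p = 0.000769). Its partner Cdt1 read 7.82, 7.89 and 7.77, then 7.78, 7.76 and 7.70, then 7.65, 7.73 and 7.65 in the same order. The 9 values of Cdt1 spanned under 0.3 log2 units, and the 95% interval of embryonic minus adult fibroblasts was -0.09 to 0.22. Geminin, the inhibitor of Cdt1 that is present from S phase to mitosis, was graded instead. Gmnn stood at 9.40 ± 0.20 in cardiomyocytes, 8.15 ± 0.27 in embryonic and 6.53 ± 0.13 in adult fibroblasts, with no overlap between groups, and was 7.29-fold lower in adult fibroblasts than in cardiomyocytes (adjusted p = 8.97e-07).

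Both subunits of the origin recognition complex among the members were higher in embryonic fibroblasts than in cardiomyocytes, against the direction of most members. Of the 13 other origin and licensing genes, which include Orc2 to Orc5, limma called 0 higher there (10.3% of all genes) and 5 lower (38.5%, against 11.1% of all genes). Orc1, the subunit that varies with the cell cycle, had 7.38, 7.33 and 7.09 in cardiomyocytes, 7.457, 7.814 and 8.004 in embryonic fibroblasts and 6.69, 6.61 and 6.75 in adult fibroblasts. The groups did not overlap, and embryonic fibroblasts exceeded cardiomyocytes by 0.49 ± 0.14 (adjusted p = 0.0320) and adult fibroblasts by 1.08 ± 0.14 (adjusted p = 0.000559). Orc6 read 9.73, 9.93 and 9.75 in cardiomyocytes, 10.02, 10.27 and 10.45 in embryonic fibroblasts and 9.99, 9.94 and 10.03 in adult fibroblasts, where the fibroblast groups overlap. It was higher in embryonic fibroblasts than in cardiomyocytes by 0.44 ± 0.11 (adjusted p = 0.0189), and the 95% interval of embryonic minus adult fibroblasts was 0.01 to 0.51, without adjustment for the genes tested (adjusted p = 0.149). With an array of either embryonic group left out, the Orc1 call against cardiomyocytes was lost in 5 of 6 cases and the Orc6 call in 4 of 6.

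All 4 members grouped under helicase activation were called below cardiomyocytes in the embryonic fibroblasts (11.1% of all genes). Of them, 3 were lower again in adult than embryonic fibroblasts (75%, against 11.2% of all genes). Gins1, a subunit of GINS, measured 9.76, 9.68 and 9.58 in cardiomyocytes, 8.62, 8.49 and 9.18 in embryonic fibroblasts and 7.17, 6.77 and 7.02 in adult fibroblasts. No groups overlapped, and the difference was -0.91 ± 0.17 between the embryonic groups (adjusted p = 0.00523) and 1.78 ± 0.17 between the fibroblasts (3.43-fold, adjusted p = 0.000113). Gins2 (-0.45 and 0.90) and Cdc45 (-0.56 and 0.49) went the same way in both comparisons. The calls of Gins1 and Cdc45 against cardiomyocytes held under all 17 alternatives. That of Gins2 was lost without embryonic fibroblast replicate 2 or 3 or cardiomyocyte replicate 1 or 2, and that of Mcm10 without embryonic fibroblast replicate 1 or 2 or cardiomyocyte replicate 2 or 3. Mcm10, which is needed for helicase activation, had 8.22, 8.39 and 8.41 in cardiomyocytes, 7.93, 8.05 and 8.08 in embryonic fibroblasts and 7.82, 7.84 and 7.64 in adult fibroblasts. Its groups did not overlap, but the difference between fibroblasts missed the threshold (0.26 ± 0.09, adjusted p = 0.0770).

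Among primase and polymerase genes 5 of 7 were higher in embryonic than adult fibroblasts (71.4%, against 11.2% of all genes), with a very wide range. Prim1, the catalytic primase subunit, measured 10.34, 10.32 and 10.07 in cardiomyocytes, 8.91, 9.29 and 9.82 in embryonic fibroblasts and 5.99, 6.77 and 6.69 in adult fibroblasts. Its groups were separate, and embryonic fibroblast replicate 3 was the highest of its group. Prim1 in embryonic fibroblasts was 7.26-fold above its adult level (2.86 ± 0.25, adjusted p = 6.00e-05) and 13.6-fold lower in adult fibroblasts than in cardiomyocytes (adjusted p = 3.39e-06). All its adult values lie below 6.91, the level of the filter on dim genes, as do those of E2f8, Gmnn, Pole and Orc1. The fold differences of these genes against adult fibroblasts therefore rest on dim adult signals. Prim2, the regulatory primase subunit, differed by 0.60 ± 0.10 between the fibroblasts (adjusted p = 0.00231).

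The leading-strand polymerase gene Pole stood at 8.49 ± 0.16 in cardiomyocytes, 7.996 on each embryonic fibroblast array and 6.49 ± 0.25 in adult fibroblasts, 2.85-fold apart between the fibroblasts (adjusted p = 4.71e-05). Its accessory subunit Pole2 was also higher in embryonic than adult fibroblasts (1.09), as was Pola1, the catalytic subunit of polymerase alpha (0.42). The Pola1 call was lost in 6 of 17 alternatives, namely the fit of 2 groups only, quantile normalization and the fits without adult replicate 1 or 2 or embryonic fibroblast replicate 2 or 3. Pola2, the second subunit of that enzyme, had 8.09, 8.15 and 8.04 in cardiomyocytes, 7.73, 7.62 and 7.71 in embryonic fibroblasts and 7.57, 7.69 and 7.32 in adult fibroblasts. Here the fibroblast groups overlap and cardiomyocytes lie above them, with a difference of -0.40 for embryonic fibroblasts minus cardiomyocytes (adjusted p = 0.0177). This call was lost without embryonic fibroblast replicate 2 or cardiomyocyte replicate 1 or 2 (limma adjusted p up to 0.0729 over the 17 alternatives). Pold1, the catalytic subunit of polymerase delta, was called in no comparison, at 7.86 ± 0.10, 7.84 ± 0.13 and 7.62 ± 0.19 in cardiomyocytes, embryonic and adult fibroblasts. The 95% interval of embryonic minus adult fibroblasts for Pold1 was -0.04 to 0.47.

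Clamp, clamp loader and lagging-strand genes were higher in embryonic than adult fibroblasts in 5 of 7 cases (71.4%, against 11.2% of all genes). Lig1, the ligase that joins Okazaki fragments, read 9.66, 9.62 and 9.30 in cardiomyocytes, 9.24, 9.25 and 9.25 in embryonic fibroblasts and 7.86, 7.87 and 7.98 in adult fibroblasts. The adult arrays were all more than 1 log2 unit lower, a 2.54-fold difference between the fibroblasts (1.35 ± 0.10, adjusted p = 2.04e-05). Pcna, the sliding clamp and a common marker of proliferation, measured 12.35, 12.26 and 12.28 in cardiomyocytes, 12.24, 12.29 and 12.39 in embryonic fibroblasts and 12.32, 12.58 and 12.40 in adult fibroblasts. Its groups overlapped in all comparisons, and the 95% interval of embryonic minus adult fibroblasts was -0.32 to 0.07. After quantile normalization Pcna was called higher in adult fibroblasts than in both embryonic groups (log2 -0.31 for embryonic minus adult fibroblasts, adjusted p = 0.0300, and 0.37 for adult fibroblasts minus cardiomyocytes, adjusted p = 0.00684). Over the 17 alternatives the adjusted p of Pcna ran from 0.0300 to 0.732 and from 0.00684 to 0.605 in these comparisons. The second Pcna probe set gave differences within 0.04 of the first in all 3 comparisons. The RefSeq table lists 2 Pcna pseudogenes, so these values are uncertain, and how much of either signal comes from copies of the gene was not tested.

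Of the clamp loader genes, Rfc3 followed the main order (-0.55 between the embryonic groups and 1.24 between the fibroblasts, adjusted p = 0.000209). Rfc4 was higher in embryonic than adult fibroblasts (0.79, adjusted p = 0.0377), with embryonic fibroblast values from 7.66 to 8.60, and this call was lost without any single adult array. Rfc5 read 9.61, 9.52 and 9.64 in cardiomyocytes, 10.01, 9.91 and 10.08 in embryonic fibroblasts and 9.25, 9.49 and 8.96 in adult fibroblasts. It was highest in embryonic fibroblasts without overlap, by 0.41 ± 0.12 over cardiomyocytes (adjusted p = 0.0416) and 0.77 ± 0.12 over adult fibroblasts (adjusted p = 0.00201). Leaving out any 1 of the 6 embryonic arrays ended the call of Rfc5 in embryonic fibroblasts against cardiomyocytes. In adult fibroblasts Rfc5 just missed a call below cardiomyocytes (-0.36 ± 0.12, adjusted p = 0.0501), without overlap. It was called there with array weights, quantile normalization, the mean of all probe sets, without adult replicate 2 and without dim genes. Rpa2, a subunit of the single-strand binding complex, was intermediate in embryonic fibroblasts (-0.44 for embryonic fibroblasts minus cardiomyocytes and 0.46 for embryonic minus adult fibroblasts). Fen1, the flap nuclease of lagging-strand processing, missed the threshold between the fibroblasts (0.55 ± 0.18, adjusted p = 0.0606), where the adult arrays ran from 6.88 to 7.70. Fen1 was called without adult replicate 3, the highest of these (0.74, adjusted p = 0.00408), with array weights, with the replicate block and without dim genes (adjusted p from 0.00305 to 0.186 over the 17 alternatives).

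Nucleotide supply genes had the largest median difference of any role between the fibroblasts with over 3 members, 1.73. Of the 4, 3 were called higher in embryonic fibroblasts (75%, against 11.2% of all genes). Rrm2 measured 10.83, 10.68 and 10.55 in cardiomyocytes, 9.46, 9.39 and 9.95 in embryonic fibroblasts and 7.59, 7.73 and 7.86 in adult fibroblasts. The groups formed steps without overlap, with -1.08 ± 0.15 between the embryonic groups (adjusted p = 0.00103) and 1.87 ± 0.15 between the fibroblasts (3.67-fold, adjusted p = 3.38e-05). Its partner in ribonucleotide reductase, Rrm1, showed similar steps of -0.87 and 1.74. Thymidylate synthase, Tyms, was called only against adult fibroblasts, at 8.92 ± 0.14 in cardiomyocytes, 9.02 ± 0.10 in embryonic and 7.30 ± 0.20 in adult fibroblasts. That is a 3.29-fold difference between the fibroblasts (adjusted p = 1.29e-05), and a 95% interval of -0.17 to 0.36 between the embryonic groups.

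Tk1, the thymidine kinase that salvages nucleosides in S phase, stood apart from the rest of its role. It read 9.21, 9.30 and 9.21 in cardiomyocytes, 9.21, 9.19 and 9.21 in embryonic fibroblasts and 9.53, 9.41 and 8.59 in adult fibroblasts. The adult arrays lay on both sides of the embryonic ones, and the 95% interval between the fibroblasts was -0.43 to 0.49. Without adult replicate 3, the lowest array, Tk1 was higher in adult fibroblasts than in embryonic fibroblasts (log2 difference -0.26, adjusted p = 0.0322) and cardiomyocytes (0.23, adjusted p = 0.0390). Over all 17 alternatives its adjusted p ran from 0.0322 to 0.989 and from 0.0390 to 0.957 in these comparisons. The second Tk1 probe set, lower by its mean of 8.50 against 9.21, gave -0.02 between the fibroblasts and -0.22 for embryonic fibroblasts minus cardiomyocytes. The value 9.21 recurs in both embryonic groups on the probe set used, and which probe set better measures Tk1 was not tested, so these values are uncertain.

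**Figure D4:**
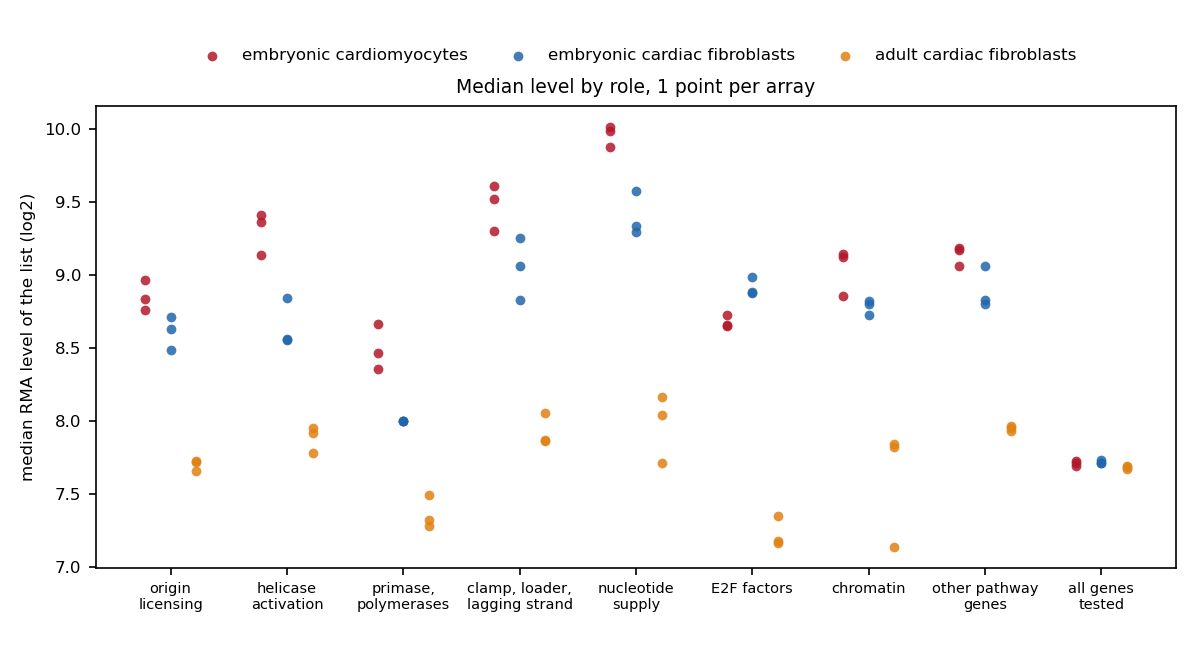
Median RMA level (log2) of the members of each role, of 71 other pathway genes and of all 19933 genes, with 1 point per array. Adult fibroblast arrays are lowest in every role, while the median of all genes is level between 7.67 and 7.73; medians of different lists are not comparable in height.

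The 3 E2F factors among the members were lower in adult fibroblasts than in cardiomyocytes (18.2% of all genes), by very different amounts. E2f5, one of the other pathway genes, was higher there (0.75 ± 0.17, adjusted p = 0.00581). E2f8 measured 9.25, 9.36 and 9.27 in cardiomyocytes, 8.88, 8.89 and 9.18 in embryonic fibroblasts and 5.90, 6.29 and 6.63 in adult fibroblasts. Adult arrays lay more than 2 log2 units below the others, a 6.54-fold difference between the fibroblasts (2.71 ± 0.17, adjusted p = 7.04e-06). E2f7, the related repressor, had 8.66, 8.73 and 8.65 in cardiomyocytes, 8.93, 9.08 and 8.98 in embryonic fibroblasts and 8.03, 8.23 and 7.90 in adult fibroblasts. Its embryonic fibroblast arrays lay above all others, by 0.95 ± 0.09 over adult fibroblasts (adjusted p = 0.000120) and by 0.32 ± 0.09 over cardiomyocytes (adjusted p = 0.0377). The latter call did not survive the loss of any 1 embryonic array. E2f1, an activator, read 7.37, 7.72 and 7.59 in cardiomyocytes, 7.40 on all embryonic fibroblast arrays and 7.35, 7.17 and 7.16 in adult fibroblasts. The embryonic fibroblast value of E2f1 lies within the cardiomyocyte range and just above the adult arrays. Its difference between the fibroblasts was 0.18 ± 0.10 (adjusted p = 0.266) and that of adult fibroblasts minus cardiomyocytes -0.33 ± 0.10 (adjusted p = 0.0274). The latter call was lost in 6 of 17 alternatives, namely the replicate block, the fit of 2 groups only and the fits without adult replicate 2 or 3 or cardiomyocyte replicate 2 or 3 (adjusted p from 0.00783 to 0.103 over the 17).

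Chromatin genes of the fork were higher in embryonic than adult fibroblasts in 3 of 3 cases (11.2% of all genes). Between the embryonic groups 0 of 3 were called, where 10.3% of all genes were higher and 11.1% lower in fibroblasts. In limma, 2 of the 3 had an unadjusted p under 0.05 there, and all 3 were called with array weights. Uhrf1, which guides maintenance methylation to new DNA, measured 9.85, 9.70 and 9.73 in cardiomyocytes, 9.28, 9.32 and 9.12 in embryonic fibroblasts and 8.21, 8.21 and 7.14 in adult fibroblasts. The groups did not overlap, with adult replicate 3 far below its group, and the fibroblasts differed by 1.39 ± 0.25 (adjusted p = 0.00368). Chaf1a, the large subunit of the histone chaperone CAF-1, had 8.86, 9.12 and 9.14 in cardiomyocytes, 8.80, 8.82 and 8.73 in embryonic fibroblasts and 7.84, 7.82 and 7.93 in adult fibroblasts. Its adult arrays lie close together and the fibroblasts differed by 0.92 ± 0.09 (adjusted p = 0.000120). The middle subunit gene Chaf1b gave 1.12 (adjusted p = 0.000456).

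Other genes of replication and the G1/S transition, listed by role, were called mostly in the same directions. Of 73 listed, 71 were measured, and 35 (49.3%, against 11.2% of all genes) were higher and 3 (4.23%, against 8.34%) lower in embryonic than adult fibroblasts. The count of 3 became 0 without embryonic fibroblast replicate 1 or 2 and in the fit of 2 groups only, and 5 with array weights. Lower calls among all genes went from 1662 to 1192, 1188, 1216 and 2519 in these fits. The most increased were Ccna2, the S phase cyclin (2.66 ± 0.20), Rpa3, a further subunit of the single-strand binding complex (2.57 ± 0.34), and the chromatin remodeller gene Hells (2.17 ± 0.12). Lower were Samhd1, which breaks down deoxynucleotides (-1.002 ± 0.24, adjusted p = 0.0169), the polymerase epsilon subunit gene Pole4 (-0.67 ± 0.16) and Orc2 (-0.41 ± 0.11). The median difference of the 71 genes was 0.42, against 0.84 for the 39 members. Both lists were chosen with earlier results of these data known, so this contrast only describes them.

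Between the embryonic groups 21 of the 71 genes (29.6%, against 11.1% of all genes) were lower in fibroblasts and 2 (2.82%, against 10.3%) higher. The count of 21 became 12 and 13 without cardiomyocyte replicates 1 and 2, 11 without embryonic fibroblast replicate 1 or 2, and 33 with array weights. Lower calls among all genes went from 2212 to 1555, 1505, 1529, 1452 and 3362 in these fits. The count of 2 became 1 without cardiomyocyte replicate 2 or 3 or any 1 of the embryonic fibroblast arrays. Ccna2 (-0.90 ± 0.20), the clamp loader accessory gene Dscc1 (-0.85 ± 0.22) and the fork protection gene Tipin (-0.76 ± 0.18) were lowest, and Top1, a topoisomerase (0.46 ± 0.12), and E2f3 (0.38 ± 0.07) were higher. Adult fibroblasts were below cardiomyocytes in 46 (64.8%, against 18.2% of all genes) and above them in 4 (5.63%, against 17.4%), or 2 to 6 with single arrays left out (2 without cardiomyocyte replicate 2). The largest decreases were those of Ccna2 (-3.56 ± 0.20), Rpa3 (-3.15 ± 0.34) and Dscc1 (-2.86 ± 0.22), and increases were led by Samhd1 (0.83 ± 0.24), E2f5 (0.75 ± 0.17) and Top1 (0.71 ± 0.12). Among 7 measured mitosis genes, 6 exceeded adult levels in embryonic fibroblasts (85.7%, against 11.2% of all genes) and 5 were below cardiomyocytes there (71.4%, against 11.1%).

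**Figure D5:**
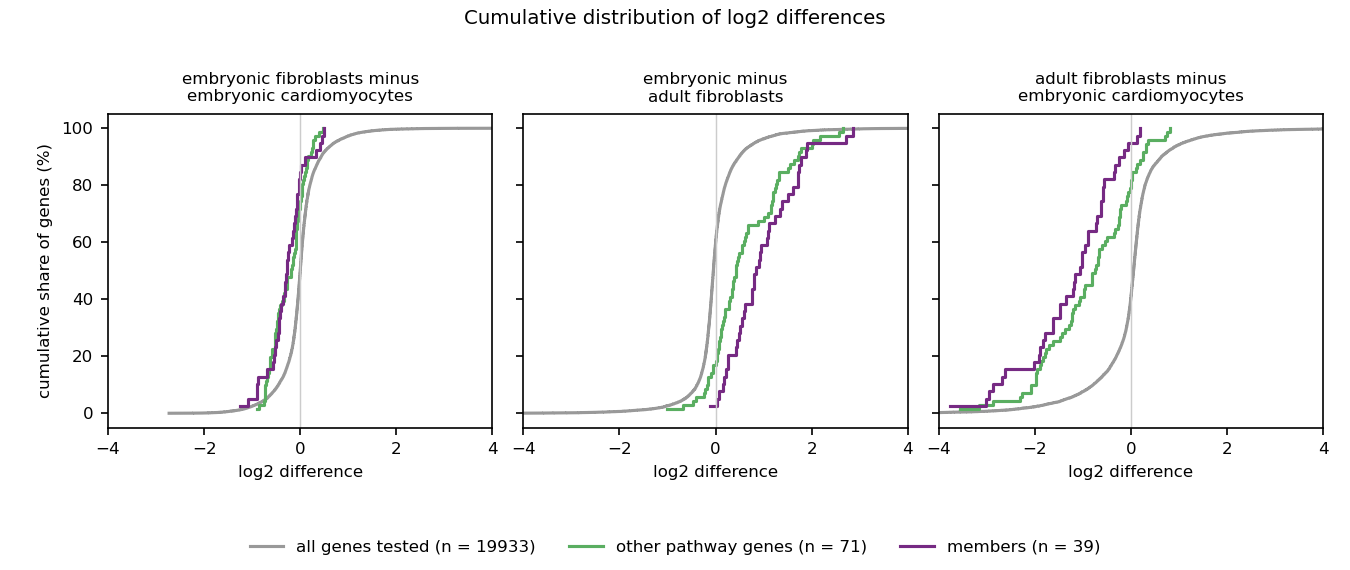
Cumulative share of genes (%) by log2 difference for the 39 members, 71 other pathway genes and all 19933 genes in the 3 comparisons. The curves of the members lie to the right of all genes for embryonic minus adult fibroblasts (median 0.84) and to the left in the other comparisons (medians -0.28 and -1.05).

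By pattern of calls, 12 members formed steps, lower in embryonic fibroblasts than in cardiomyocytes and lower again in adult fibroblasts: Gmnn, Mcm2, Mcm7, Cdc45, Gins1, Gins2, Prim1, Pole, Rfc3, Rpa2, Rrm1 and Rrm2. Of these, Gmnn, Cdc45, Gins1, Rpa2, Rrm1 and Rrm2 kept the call between the embryonic groups under all 17 alternatives, and the other 6 lost it in several fits with a single embryonic array left out. The middle step of Mcm2 and Pole is a value shared by all embryonic fibroblast arrays, the median of the 9 arrays. A further 15 were lower in adult fibroblasts than in both embryonic groups with no call between the embryonic groups: Cdc6, Mcm3, Mcm4, Mcm5, Mcm6, Prim2, Pola1, Pole2, Rfc4, Lig1, Tyms, E2f8, Uhrf1, Chaf1a and Chaf1b. Orc1 and E2f7 were highest in embryonic fibroblasts and lowest in adult ones. Rfc5 was above both other groups, and the call between those was missed narrowly (adjusted p = 0.0501). Mcm10 and Pola2 were called below cardiomyocytes in both fibroblast groups, but for embryonic fibroblasts both calls were lost in several fits with a single embryonic array left out. Fen1 and E2f1 had a single call, below cardiomyocytes in adult fibroblasts, and Orc6 a single call, above cardiomyocytes in embryonic ones. Cdt1, Pold1, Pcna and Tk1 were called in no comparison. A missing call does not show equal levels, and whether the patterns differ from one another was not tested. The share of all genes with each pattern of calls was not counted, so these counts only describe the members.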

How the data were processed

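The authors deposited log2 values of 9 arrays made with RMA, per the submitters' processing notes. The log base is not stated there, and log2 was read from the range of the values (2.70 to 14.20). RMA corrects background, normalizes arrays and summarizes the probes of a set, which compresses differences of dim genes. Genome build, annotation and RMA version are not given in the sources available here. Of 28767 probe sets, 21776 had 1 gene symbol, 1618 had several and 5373 none; the last 2 kinds were left out. Symbols were checked against RefSeq (GRCm38.p6) through 21686 Entrez identifiers, and 0 changed. This left 19933 genes, with no filter on dim genes. Groups and replicate numbers came from the sample titles, and 0 further columns were present.

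Limma 3.58.1 (lmFit and eBayes, R 4.3.3) was fitted with a mean per group over all 9 arrays (9.21 degrees of freedom). Tests were two-sided with Benjamini-Hochberg adjustment, and intervals are 95% from the same fit. The number of arrays limits the precision. The main fit has no replicate block, as no pairing of replicate numbers is stated. Of 17 alternatives, 9 left out 1 array each. Members given with every array are, in each role, those with the largest and smallest difference between the fibroblasts, those called against the main direction, and Mcm2, Mcm5, Pcna, Rrm2, Cdc6 and E2f1. Of other pathway genes, up to 3 per direction and comparison are named. Members and lists were chosen with earlier results of these data known. Plots used matplotlib 3.10.9 (Python 3.11.15). RMA's summary by median polish can return the array median for several arrays, and equal values are reported where they occur.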

Additional observations from a re-analysis of the deposited data

How the results depend on the processing

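Of 30 members called higher in embryonic than adult fibroblasts, 27 kept the call under all 17 alternatives (Mcm7, Pola1 and Rfc4 did not). Of 33 called lower in adult fibroblasts than in cardiomyocytes, 31 did (E2f1 and Fen1 did not). Between the embryonic groups 6 of 14 lower calls (Gmnn, Cdc45, Gins1, Rpa2, Rrm1 and Rrm2) and 0 of 4 higher calls were kept under all 17. There the number of members called higher went from 4 to 2 with the replicate block, with arrays centred on their medians and with trend and robust moderation, and lower calls rose from 14 to 22 with array weights. Lower calls among all genes rose from 2212 to 3362 with array weights. Deviations from the group means correlated at r from -0.195 to 0.198 between same-numbered arrays and from -0.22 to 0.191 between the others. With 3 arrays per group this cannot exclude a pairing. The numbers were not taken to pair the arrays because no pairing is stated. The replicate block left 12 members lower between the embryonic groups, 29 higher in the fibroblast comparison and 32 lower in the remaining one. Quantile normalization called 1 member, Pcna, lower in embryonic than adult fibroblasts and 1, again Pcna, higher in adult fibroblasts than in cardiomyocytes. Of the other pathway genes, array weights gave 33 lower between the embryonic groups (21 in the main analysis) and 5 lower in embryonic than adult fibroblasts (3), and the fit of only 2 groups gave 0.

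Leaving out 1 array at a time gave 0 to 4 members higher and 6 to 17 lower between the embryonic groups, 27 to 30 higher and 0 to 1 lower between the fibroblasts, and 0 to 1 higher and 31 to 33 lower for adult fibroblasts against cardiomyocytes. The count of 14 fell to 6 without cardiomyocyte replicate 2 or embryonic fibroblast replicate 2, and to 8 without replicate 1 of either group. Lower calls among all genes fell from 2212 to 1505 and 1452 without replicate 2 of these groups, and to 1555 and 1529 without replicate 1. For other pathway genes the ranges were 1 to 2 and 11 to 27, 33 to 39 and 0 to 3, and 2 to 6 and 41 to 47. In all arms left with 2 arrays the spread is pooled over groups.

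Signs turned for differences near 0 and for Tk1. Between the embryonic groups Mcm4 (0.0007 in the main analysis) was -0.014 with centred arrays, -0.055 with array weights and -0.098 to 0.12 with single arrays left out. Pcna was -0.00067 with centred arrays and -0.028 to 0.046 with single arrays left out, Pold1 0.015 with array weights and -0.093 to 0.035, and Pole2 -0.29 to 0.032. Embryonic minus adult fibroblasts gave -0.0083 for Tk1 after quantile normalization, -0.22 with array weights and -0.26 to 0.21 with single arrays left out. Adult fibroblasts minus cardiomyocytes gave 0.16 with array weights and -0.24 to 0.23. The cause was not tested.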
